A study of Mus musculus with 12 samples.

Results

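The genes described here are 10 signalling genes: the 4 Janus kinases Jak1, Jak2, Jak3 and Tyk2, the transcription factors Stat3, Stat5a and Stat5b, and the 3 Pim kinases Pim1, Pim2 and Pim3. They were picked by symbol from a table of 50559 genes, and all 10 were found in it and passed the filter on low counts, which left 13530 tested genes. The study measured poly(A) RNA by sequencing in bone marrow-derived macrophages, which are macrophages grown in culture from bone marrow, of C57BL/6 mice. The groups are 6 libraries of cells that received house dust mite (HDM) allergen for 1 h and 6 libraries of cells that received vehicle for the same time. The labels name no other allele, agent or animal age. Whether each library is a different animal or culture is not labelled, and p-values therefore reflect the spread among these libraries only, which may be technical. In such bulk samples, fewer cells of a type and less RNA per cell cannot be told apart.

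Cytokine receptors without an enzyme of their own carry Janus kinases on their inner side. When a cytokine binds, these kinases phosphorylate the receptor and then the STAT proteins, which pair, enter the nucleus and switch on genes. Pim1, Pim2 and Pim3 encode serine/threonine kinases that are active as soon as they are made, so their output is set largely by how much of the protein a cell holds. Pim genes are known targets of STAT3, STAT5 and NF-kB. In macrophages the interleukin-6, interleukin-10, interferon and granulocyte-macrophage colony-stimulating factor receptors all signal through this pathway.

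After 1 h of HDM, transcripts of Pim1 and Pim3 were higher than with vehicle, 1.79-fold (95% interval 1.49 to 2.15) and 1.61-fold (1.29 to 2.0), over 6 libraries per group. Stat5b was higher by 8.08% (3.45% to 12.9%). The 4 Janus kinases, Stat3, Stat5a and Pim2 were not called, with log2 differences between -0.09 and 0.01. Calls rest on edgeR's quasi-likelihood test, adjusted over all tested genes, at a threshold of 0.05. That test called 3 of the 10 genes higher with HDM and 0 lower (0 lower also at an unadjusted p under 0.05), where it called 5.37% of all tested genes, 2.9% higher and 2.47% lower. With the library number as a block, a pairing that the labels do not give, it again called 3 of the 10 higher and 0 lower. That fit called 14.7% of all genes, 7.9% higher and 6.81% lower. With neighbouring library numbers summed to 3 samples per group and no block, 0 of the 10 were called, and Stat5b was called in 9 of 23 alternatives. The median log2 fold change over the 10 was -0.01, and it was 0.00 over all tested genes.

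Total counts ran from 19.76 to 119.71 M per library with HDM and from 19.69 to 62.41 M with vehicle. The first principal component of log2 CPM (counts per M reads, scaled with TMM factors) held 42.2% of the variance and separated the 2 highest library numbers, 5 and 6, from 1 to 4 in HDM and vehicle alike. Fitted within each of these sets, 2 of the 10 genes were called in libraries 5 and 6 (Pim1 and Pim3) and 3 in libraries 1 to 4 (also Stat5b). These sets were split on the data, and libraries 5 and 6 give only 2 libraries per group, which may share a source. The p-values within a set therefore reflect the spread of its few libraries only. All 8 macrophage markers examined, among them Adgre1, Csf1r and Lyz2, passed the filter. Their summed level was 16724 to 20540 CPM with HDM and 16464 to 20936 CPM with vehicle. Summed over each list, markers of neutrophils, lymphocytes, dendritic cells and mast cells, basophils and eosinophils were at 0.121 to 8.68 CPM with HDM and 0.189 to 7.35 CPM with vehicle, and the neutrophil gene Retnlg and the basophil and mast cell genes Mcpt8 and Fcer1a had 0 reads. Stromal and endothelial markers summed to 14.1 to 39.2 CPM with HDM and 12.7 to 40.9 CPM with vehicle, most of it from the endothelial receptor gene Kdr at a mean of 19.2 CPM with HDM and 17.7 CPM with vehicle. In that list the collagen genes Col1a1, at 0.449 CPM with HDM and 1.11 CPM with vehicle, and Col1a2, at 0.467 CPM with HDM and 0.931 CPM with vehicle, were not called with treatment as the only term (adjusted p = 0.342 and 0.575). With the library number as a block both were lower with HDM (adjusted p = 0.00141 and 0.0485), and their part in the results below was not tested.

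**Figure D1:**
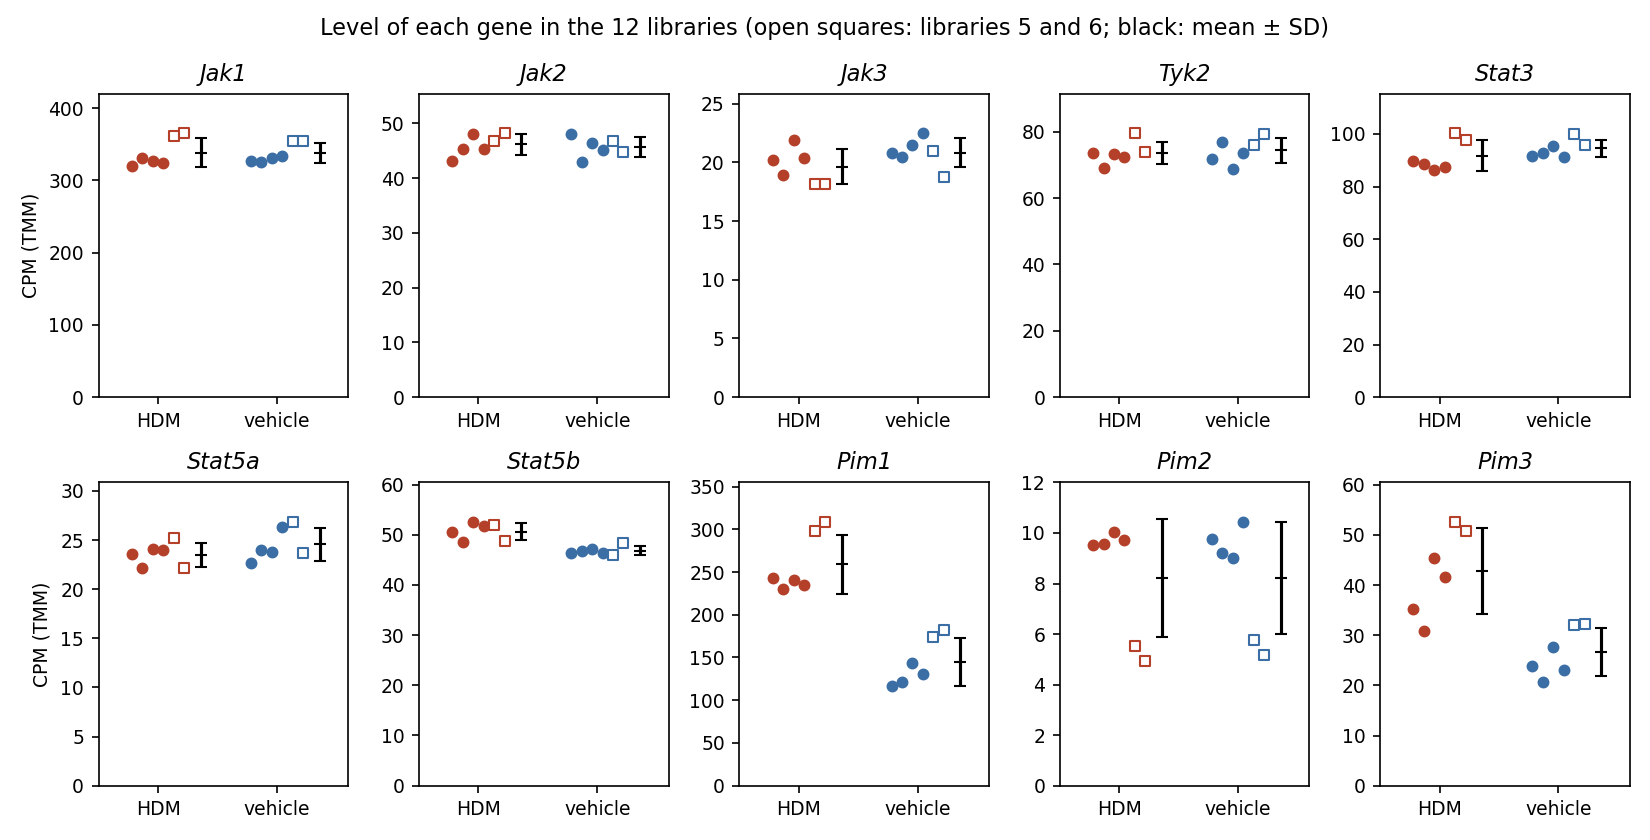
CPM with TMM factors of each of the 10 genes in every library, HDM left and vehicle right, on axes that start at 0; filled circles are libraries numbered 1 to 4, open squares those numbered 5 and 6, and black marks the mean with its SD (n = 6). HDM libraries lie above all vehicle libraries for Pim1 and Stat5b, and Pim2 separates by library number in place of treatment.

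None of the 4 Janus kinases was called in either direction (0 of 4, and 0 at an unadjusted p under 0.05). Jak1, the kinase shared by most cytokine receptors of macrophages, had a lowest, median and highest level of 320, 329 and 365 CPM with HDM, against 326, 333 and 355 CPM with vehicle. The 2 ranges overlapped almost completely, and in each group libraries 5 and 6 were the highest. Levels given 3 at a time below keep that order of lowest, median and highest. The log2 fold change was 0.00 (SE 0.04, edgeR adjusted p = 1.0, 95% interval of the fold 0.939 to 1.07). Within libraries 5 and 6 the log2 fold changes of the Janus kinases were 0.04 for Jak1, 0.06 for Jak2, -0.11 for Jak3 and -0.02 for Tyk2. Within libraries 1 to 4 they were -0.02 for Jak1, -0.01 for Jak2, -0.07 for Jak3 and -0.01 for Tyk2, and none was called in either set.

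Jak2, which serves the receptors of granulocyte-macrophage colony-stimulating factor and interferon gamma, had 43.2, 46.1 and 48.2 CPM with HDM and 43.0, 45.8 and 48.1 CPM with vehicle, a log2 fold change of 0.01 (SE 0.04, edgeR adjusted p = 1.0). Tyk2, the partner of Jak1 at interferon and interleukin-10 receptors, had 69.2, 73.5 and 79.6 CPM with HDM and 68.9, 74.7 and 79.3 CPM with vehicle (-0.01 ± 0.04, adjusted p = 1.0). For these genes the lowest and highest libraries of the groups differed by less than 1 CPM. The 95% intervals of the fold change reached from 0.955 to 1.07 for Jak2 and from 0.932 to 1.05 for Tyk2.

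Jak3, the kinase of receptors that hold the common gamma chain, was the Janus kinase with the largest difference in this fit, and it too was not called. It had 18.1, 19.6 and 21.9 CPM with HDM, against 18.7, 20.9 and 22.5 CPM with vehicle. The ranges overlapped, though the HDM library was the lower one in 5 of 6 library numbers. The log2 fold change was -0.09 (SE 0.06, edgeR adjusted p = 0.635), with an interval of the fold from 0.865 to 1.02. In the GENCODE M21 annotation 7.55% of the exon bases of Jak3 are shared with Insl3 on the same strand, but Insl3 had only 15 reads with HDM and 13 with vehicle beside 5958 and 5206 for Jak3.

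Stat3, the transcription factor behind the responses to interleukin-6 and interleukin-10, had 86.3, 89.2 and 100.3 CPM with HDM and 91.0, 94.0 and 99.99 CPM with vehicle. The HDM libraries spread wider and their median was the lower, within overlapping ranges. The log2 fold change was -0.04 (SE 0.04, edgeR adjusted p = 0.866). It was -0.07 ± 0.03 in libraries 1 to 4 alone (adjusted p = 0.234) and 0.02 ± 0.04 in libraries 5 and 6 alone (adjusted p = 0.826).

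Stat5a and Stat5b are neighbouring genes with closely related products that answer to granulocyte-macrophage colony-stimulating factor and other cytokines. Stat5b had 48.5, 51.1 and 52.6 CPM with HDM and 45.9, 46.6 and 48.4 CPM with vehicle. The lowest HDM library lay just above the highest vehicle library, by less than 0.1 CPM, so the groups did not overlap, which among the members holds also for Pim1 and over all tested genes for 4.39%, with HDM the higher in 2.32% and the lower in 2.07%. The mean was 50.6 ± 1.74 CPM with HDM against 46.8 ± 0.876 CPM with vehicle (SD, 6 libraries each). The rise was small, at a log2 fold change of 0.11 (SE 0.03, edgeR adjusted p = 0.0423). It was not called without any one of HDM 1, HDM 3, HDM 4, HDM 5 and vehicle 1 to 5 (adjusted p 0.0674 to 0.0965), nor with upper-quartile factors (0.102), total library size (0.15), no filter (0.207) or libraries 5 and 6 alone (0.34). In libraries 1 to 4 alone the log2 fold change was 0.12 (adjusted p = 0.046), and with the library number as a block its adjusted p was 0.0173.

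Stat5a had 22.1, 23.7 and 25.2 CPM with HDM and 22.7, 23.9 and 26.9 CPM with vehicle, in overlapping ranges. Its log2 fold change was -0.06 (SE 0.05, edgeR adjusted p = 0.783), with -0.07 in libraries 5 and 6 and -0.04 in libraries 1 to 4. Of the reads on Stat5a and Stat5b together, Stat5a took 31.7% ± 0.554 with HDM and 34.4% ± 1.76 with vehicle (SD over 6 libraries). Its share ran from 31.2% to 32.7% with HDM and from 32.8% to 36.9% with vehicle, so the shares did not overlap, with the nearest libraries less than 0.1 percentage points apart. The difference of HDM minus vehicle was -2.91 points in libraries 5 and 6 and -2.56 in libraries 1 to 4. This share is a description and was not tested, and how reads that match both genes were assigned is not given in the sources used here.

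Pim1 and Pim3 were the members with the largest differences, and Pim2 was among the smallest. RefSeq promoter windows, from 250 bases before to 50 after the start of transcription, are printed for the 3 genes because Pim1 and Pim3 rose together and Pim2 did not. They lie on the plus strand of GRCm38.p6, Pim1 at chr17:29490535-29490834, Pim2 at chrX:7878056-7878355 and Pim3 at chr15:88861944-88862243. Capitals mark the GC box, GGGCGG or its complement on the other strand, a site class bound by SP1-type factors that was looked for after the sequences were seen:
Pim1: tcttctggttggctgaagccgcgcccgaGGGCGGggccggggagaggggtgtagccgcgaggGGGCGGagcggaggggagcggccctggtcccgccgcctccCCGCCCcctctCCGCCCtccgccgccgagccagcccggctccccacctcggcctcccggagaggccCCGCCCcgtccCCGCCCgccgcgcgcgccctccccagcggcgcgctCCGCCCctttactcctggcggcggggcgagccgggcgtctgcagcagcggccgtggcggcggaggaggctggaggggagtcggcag
Pim2: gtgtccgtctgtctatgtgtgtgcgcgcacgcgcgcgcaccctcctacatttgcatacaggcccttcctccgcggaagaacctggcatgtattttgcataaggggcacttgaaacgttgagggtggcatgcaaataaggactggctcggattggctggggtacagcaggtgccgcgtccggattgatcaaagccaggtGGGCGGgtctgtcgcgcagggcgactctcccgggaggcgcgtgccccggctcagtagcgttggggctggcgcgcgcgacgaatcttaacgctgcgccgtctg
Pim3: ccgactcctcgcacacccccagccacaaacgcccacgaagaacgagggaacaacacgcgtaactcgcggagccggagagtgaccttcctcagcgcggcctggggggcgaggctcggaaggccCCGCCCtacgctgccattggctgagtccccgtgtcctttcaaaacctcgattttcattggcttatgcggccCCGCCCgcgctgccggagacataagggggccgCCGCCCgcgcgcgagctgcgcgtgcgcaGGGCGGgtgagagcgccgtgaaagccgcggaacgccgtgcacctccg
Pim1 holds 7 GC boxes, Pim3 holds 4 and Pim2 holds 1. At least 1 GC box stands in 35.7% of the 32851 windows of the table, a share that gives no background for the number of boxes in a window. A link of these counts to the rises was not tested. The share of G and C was 81.3% in Pim1, 69.0% in Pim3 and 62.7% in Pim2. Every other member also holds at least 1 GC box in a window, among them Jak2, which was not called and holds 3 at 81.0% G and C, and Stat5b, with 3 at 82.7% in 1 of its windows. None of the 3 windows, nor a second Pim1 window at a start further into the gene, holds the STAT motif TTCNNNGAA, the CREB motif TGACGTCA, the AP-1 motif TGANTCA or the NF-kB consensus on either strand. Those motifs stand in 8.3%, 1.79%, 7.81% and 4.51% of all windows. Among the other members the CREB motif stands in Jak1, from 101 to 94 bases before its start, and the NF-kB consensus in 1 of 2 Stat5a windows, and neither Jak1 nor Stat5a was called. A match or its lack describes only these windows.

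Pim1, which encodes the kinase first found as a site of proviral insertion in mouse lymphoma, had 230, 242 and 309 CPM with HDM and 117, 137 and 182 CPM with vehicle. Every HDM library lay above every vehicle library, by at least 47.9 CPM. The mean was 259 ± 34.6 CPM with HDM and 145 ± 27.6 CPM with vehicle (SD, 6 libraries each), which gives a log2 fold change of 0.84 (SE 0.12, edgeR adjusted p = 0.000858, 95% interval of the fold 1.49 to 2.15). Within library numbers the log2 ratio of HDM to vehicle was above 0 in 6 of 6, from 0.75 to 1.05, a direction that the lack of overlap already fixes. Libraries 5 and 6 had higher Pim1 in both groups, 303 against 237 CPM in libraries 1 to 4 with HDM and 178 against 128 CPM with vehicle. With neighbouring numbers summed and no block, Pim1 was not called (adjusted p = 0.142). The rise was present in each set, at 0.77 ± 0.04 SE in libraries 5 and 6 (adjusted p = 6.54e-21) and 0.89 ± 0.05 in libraries 1 to 4 (adjusted p = 1.69e-07). These sets were split on the data, and libraries 5 and 6 of a group may share a source. The 2 p-values therefore measure only the spread of few libraries within a set. The annotation places an uncharacterised gene, Gm26885, opposite 14.5% of the Pim1 exon bases. Gm26885 had 14 reads with HDM and 5 with vehicle, beside 77683 and 35054 for Pim1.

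Pim3, whose product is the closest relative of PIM1 in sequence and shares its substrates, had 30.9, 43.5 and 52.7 CPM with HDM and 20.8, 25.8 and 32.2 CPM with vehicle. HDM 2 lay below vehicle 5 and vehicle 6, so the groups overlapped, and every other HDM library lay above all vehicle libraries. The mean was 42.8 ± 8.56 CPM with HDM and 26.6 ± 4.81 CPM with vehicle (SD, 6 libraries each), which gives a log2 fold change of 0.69 (SE 0.15, edgeR adjusted p = 0.0134, 95% interval of the fold 1.29 to 2.0). Within library numbers the log2 ratio ran from 0.57 to 0.85 and was above 0 in 6 of 6. The log2 fold change was 0.69 ± 0.05 SE in libraries 5 and 6 (adjusted p = 6.01e-14) and 0.67 ± 0.11 in libraries 1 to 4 (adjusted p = 0.00162). The limit given for the p-values of Pim1 within these sets holds here too. With neighbouring numbers summed and no block Pim3 was not called (adjusted p = 0.31).

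Pim2, the relative best known from lymphoid cells, followed the library number and showed no call for treatment. It had 4.94, 9.54 and 10.04 CPM with HDM and 5.18, 9.1 and 10.5 CPM with vehicle, on 111 to 1147 reads per library. The log2 fold change was -0.01 (SE 0.22, edgeR adjusted p = 1.0), and the wide interval of the fold, 0.713 to 1.38, includes levels up to 37.8% higher with HDM. Libraries 5 and 6 averaged 5.23 CPM with HDM and 5.46 CPM with vehicle, and libraries 1 to 4 averaged 9.71 CPM with HDM and 9.6 CPM with vehicle. With the library number as a block, which removes this spread, the log2 fold change was -0.01 (SE 0.05, edgeR adjusted p = 0.957). Stromal and endothelial markers moved the other way between the sets, at a summed 38.7 CPM in libraries 5 and 6 against 14.9 in libraries 1 to 4 with HDM, and at 37.6 against 14.8 with vehicle. Mast cell, basophil and eosinophil markers did so too, at 8.45 against 4.39 CPM with HDM and 7.25 against 4.04 CPM with vehicle. Most of that sum was Siglecf, at a mean of 4.83 CPM over all HDM libraries and 4.18 CPM over all vehicle libraries. Neutrophil markers also did, at 6.02 against 4.41 CPM with HDM and 5.79 against 4.44 CPM with vehicle. Most of their sum was S100a8, at a mean of 4.28 CPM over all HDM libraries and 4.36 CPM over all vehicle libraries. Macrophage markers were lower in libraries 5 and 6, at 16846 against 18787 CPM with HDM and 16545 against 19286 CPM with vehicle. Dendritic cell markers were lower there as well, at 0.674 against 0.779 CPM with HDM and 0.337 against 0.636 CPM with vehicle. Lymphocyte markers were higher there, at 0.532 against 0.342 CPM with HDM and 0.542 against 0.434 CPM with vehicle. The part of these markers in the Pim2 level was not tested.

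**Figure D2:**
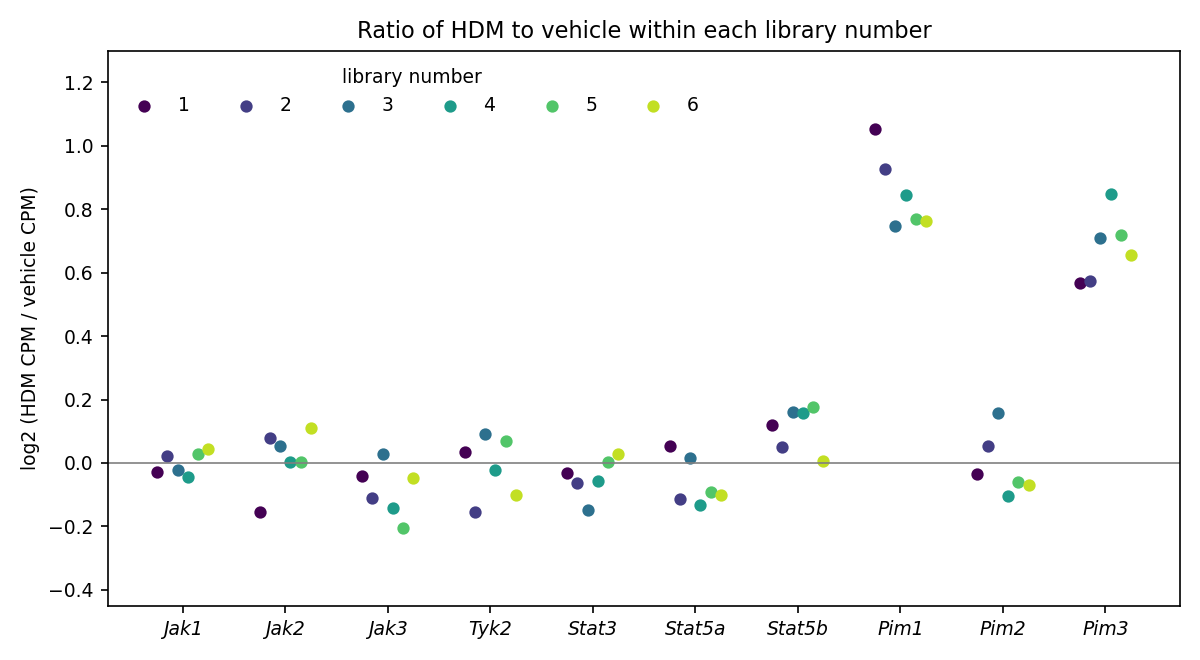
Log2 ratio of the HDM to the vehicle CPM within each library number, 1 point per number and gene, with the line at 0 for equal levels. All 6 ratios lie at 0.57 or above for Pim3 and at 0.75 or above for Pim1, while Pim2 spreads from -0.11 to 0.16 around 0.

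**Figure D3:**
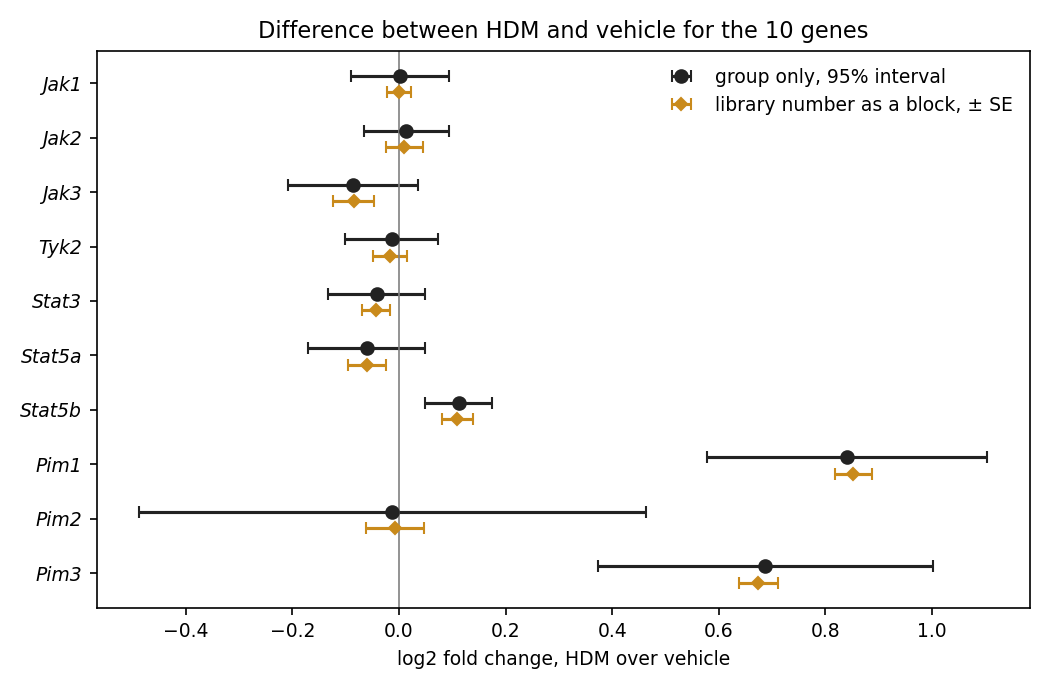
Log2 fold change of HDM over vehicle for the 10 genes, with the 95% interval from the fit with treatment only (black, above) and ± SE from the fit with the library number as a block (ochre, below), 6 libraries per group. The black intervals of Pim1, Pim3 and Stat5b lie to the right of 0 and those of the other 7 genes span it.

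The labels do not say whether neighbouring library numbers share a source. With the counts of numbers 1 and 2, 3 and 4, and 5 and 6 summed to 3 samples per group, none of the 10 was called by edgeR (0 of 10, with 119 genes called over the table). At an unadjusted p under 0.05 there were 3, Pim1, Pim3 and Stat5b. With each summed pair also kept as a block, 3 were called again, with adjusted p = 5.95e-09 for Pim1, 8.62e-09 for Pim3 and 0.034 for Stat5b. The fold changes hardly moved, with Pim1 at 0.84 and 0.85 and Pim3 at 0.69 and 0.69 on the log2 scale.

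Levels of different genes can be set side by side only per length, here as CPM per kb of exon in GENCODE M21. These lengths pool the exons of all transcripts of a gene. The annotation used for counting was not stated, so the order of genes holds for these lengths only. With HDM, Pim1 led at 77.1 ± 10.3 CPM per kb, followed by Jak1 at 46.8 ± 2.79 and Pim3 at 17.6 ± 3.53 (SD, n = 6). With vehicle, Jak1 led at 46.7 ± 1.85 CPM per kb, with Pim1 at 43.1 ± 8.22 in an overlapping range and Pim3 at 10.97 ± 1.98. So Pim1 stood clear of Jak1 only with HDM, where its lowest library had 68.5 CPM per kb against a highest Jak1 library of 50.5. Tyk2, Stat3, Jak2 and Stat5b formed a middle group with means of 9.14 to 10.7 CPM per kb with HDM and 8.45 to 10.8 with vehicle, in which neighbours in the order overlapped. Jak3, Stat5a and Pim2 were lowest in both groups, at 2.94 to 3.67 CPM per kb with HDM and 2.94 to 3.89 with vehicle, and neighbours among them overlapped too. Pim1 took 83.5% ± 1.52 of the reads on the 3 Pim genes with HDM and 80.4% ± 1.93 with vehicle (SD over 6 libraries), Pim3 took 13.7% ± 1.53 with HDM and 14.8% ± 0.789 with vehicle, and Pim2 took 2.75% ± 1.01 with HDM and 4.83% ± 1.86 with vehicle, in shares of reads that are not scaled by length. The Pim1 share was higher with HDM by 1.58 percentage points in libraries 5 and 6 and by 3.95 in libraries 1 to 4.

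**Figure D4:**
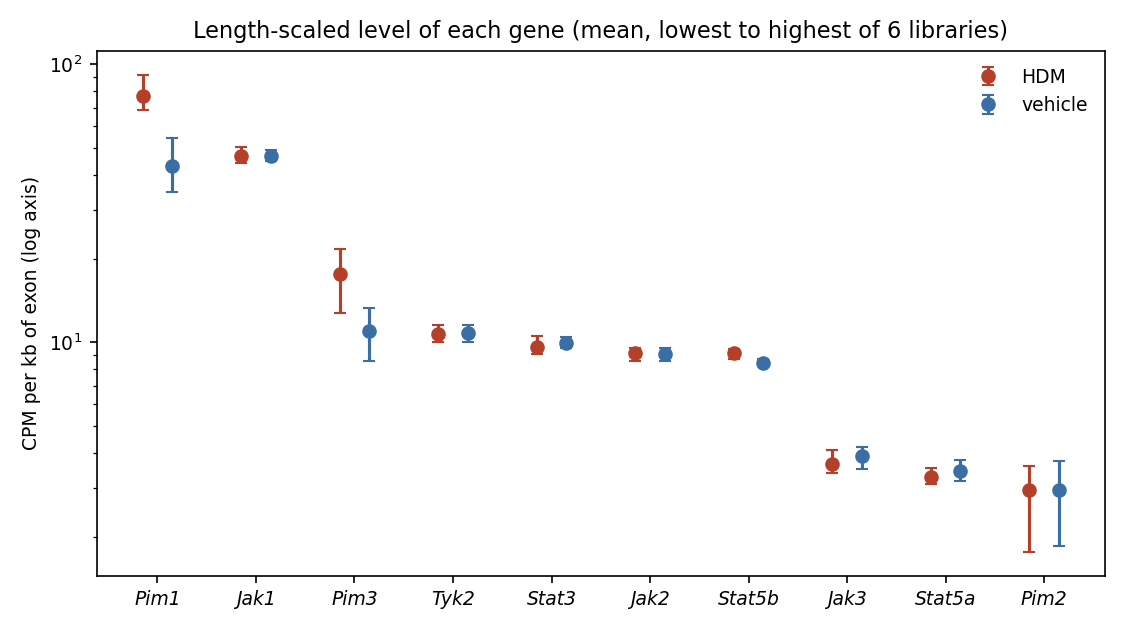
CPM per kb of exon for each gene on a log axis, HDM left and vehicle right of each gene; points are means and bars run from the lowest to the highest of 6 libraries. Pim1 lies above Jak1 with HDM and overlaps it with vehicle, and Pim3 lies above the middle group only with HDM.

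The genes whose profile lay nearest to that of a called member were searched among 11428 others with a mean of at least 1 CPM, by the root mean square difference of log2 CPM, centred on the vehicle mean, over the 12 libraries. For Pim1 the nearest was Osm, the gene of the cytokine oncostatin M, at 0.0996 log2 units, then Tiparp, the gene of an ADP-ribosyltransferase, at 0.106. Osm had 89.9 ± 6.99 CPM with HDM and 52.2 ± 11.5 CPM with vehicle (SD, 6 libraries each), at a log2 fold change of 0.79 (SE 0.12, edgeR adjusted p = 0.00133). For Pim3 they were Pvr, the gene of the poliovirus receptor family member CD155, at 0.102 and Junb, which encodes an AP-1 subunit, at 0.112. For Stat5b they were Dda1, itself not called (edgeR adjusted p = 0.131), at 0.0282 and Rhbdf2 at 0.0361, where the small distance goes with the small size of all these changes. Between members the most alike were Jak1 and Stat3, at 0.0441, and the least alike Pim1 and Pim2, at 0.86.

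The rest of the pathway was examined by role in lists chosen with earlier results of these data known, so their counts describe the pathway and are no independent evidence. Among other STAT genes, Stat2, whose product is a subunit of the interferon-activated factor, was at 39.3 ± 1.93 CPM with HDM and 50.3 ± 5.6 CPM with vehicle (SD, 6 libraries each). It fell by 0.36 ± 0.07 SE on the log2 scale (edgeR adjusted p = 0.00557). Stat4 and Stat6 were both at -0.01 (adjusted p = 1.0 each).

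Ligand genes held the largest rises of the lists examined. Of 25 cytokine genes listed, 10 passed the filter. Of these edgeR called 6 higher, where 2.9% of all genes were called higher, and 0 lower (0 lower at an unadjusted p under 0.05). With the library number as a block 8 were called higher, where 7.9% of all genes were, and 0 lower. Some passed only through the HDM libraries, such as Il6 and Csf3, which had almost no vehicle reads. For these a higher call was nearly fixed in advance, so the count cannot be weighed against the share over all genes. The 4 with the smallest p were Il6 at a log2 fold change of 8.48 (SE 0.52, edgeR adjusted p = 3.19e-07), Il10 at 4.41 ± 0.37 (5.68e-06), Csf3, the gene of granulocyte colony-stimulating factor, at 5.46 ± 0.48 (8.3e-06), and Lif at 4.05 ± 0.53 (0.000372). The sizes for Il6 and Csf3 are uncertain, since all vehicle libraries together held 6 and 4 reads of them. The remaining 2 were Osm and Il27. Il27 was low, at 0.495 CPM with HDM and 0.152 CPM with vehicle, with 41 reads over all vehicle libraries. It too passed the filter through the HDM libraries, so the same limit holds for its call. Il10 was at 24.8 CPM with HDM and 1.13 CPM with vehicle, and Il6 at 9.53 CPM with HDM and 0.0219 CPM with vehicle. The interferon genes Ifnb1 and Ifng were not tested, with 2 reads of Ifnb1 over all HDM libraries and 0 over all vehicle libraries, and 0 of Ifng in either.

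Of 32 receptor genes listed, 25 passed the filter and 2 rose, where 5.37% of all tested genes were called. Il10ra, the interleukin-10-binding chain, rose to 112 ± 3.13 CPM in HDM libraries, against 70.4 ± 2.78 CPM in vehicle libraries (SD, 6 libraries each), at a log2 fold change of 0.67 (SE 0.03, edgeR adjusted p = 3.53e-08), and the groups did not overlap. Ifngr2, a chain of the interferon gamma receptor, rose by 0.16 ± 0.03 (adjusted p = 0.00321). Ifngr1 was at 0.10 ± 0.04 (adjusted p = 0.226) and Ifnar1, a chain of the type I interferon receptor, at 0.07 ± 0.03 (adjusted p = 0.264). With the library number as a block 5 receptor genes were called, 3 higher and 2 lower, where 14.7% of all genes were called, the added ones being Ifngr1 (adjusted p = 0.0412), Csf2rb at -0.14 (0.00396) and Il11ra1 at -0.13 (0.0367). Csf2rb and Il11ra1 have near-identical copies in the mouse that can share reads, so their values are uncertain. The median over the 25 was 0.01.

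Among inhibitors of the pathway, 2 SOCS genes, Cish and Pias4 rose. Of 19 genes, all tested, 4 rose and 0 fell, where 5.37% of all genes were called. With the library number as a block 5 were called, where 14.7% of all genes were, the added one being Socs6, which was at -0.11 (adjusted p = 0.0412 with the block). Socs3, whose product blocks the interleukin-6 receptor chain and its Janus kinases, rose by 3.30 ± 0.20 SE on the log2 scale (adjusted p = 2.25e-07). Cish, a STAT5-controlled inhibitor, rose by 2.08 ± 0.22 (4.4e-05) and Socs5 by 0.25 ± 0.05 (0.00596), which was not called in libraries 5 and 6 alone (0.0784). Pias4, a SUMO ligase that binds STATs, rose by 0.15 ± 0.04 (adjusted p = 0.0402), a call that was lost without HDM 1, 3, 4, 5 or 6 or without vehicle 1, 2, 3, 4 or 6 (0.0533 to 0.0974) and with upper-quartile factors (0.0526), total library size (0.0742) or no filter (0.135). The phosphatase genes Ptpn1, Ptpn2, Ptpn6, Ptpn11 and Ptprc were not called. The list's median was 0.07.

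Among 18 genes listed as targets of STAT3 and STAT5, all tested, edgeR called 9 higher, against 2.9% of all genes, and 0 lower (0 lower at an unadjusted p under 0.05 and 0 with the library number as a block), at a median of 0.23. Those with the smallest p were Myc at 1.38 ± 0.09 SE (adjusted p = 3.75e-07), Cebpd at 1.33 ± 0.16 (0.000172), Nfil3, a repressor that interleukin-10 induces in macrophages, at 2.09 ± 0.26 (0.000204), and Bcl6, a repressor gene, at 0.26 ± 0.04 (0.00289). The remaining 5 were Bcl3, Junb, Sbno2, Bcl2l1 and Etv3. With the library number as a block 13 of the 18 were called higher, where 7.9% of all genes were. The calls of Bcl2l1 (0.15 ± 0.04, adjusted p = 0.038) and Etv3 (0.20 ± 0.05, adjusted p = 0.0405) were lost without single libraries, Bcl2l1 without HDM 1, 4, 5 or 6 or vehicle 1, 2, 3, 4 or 6 and Etv3 without HDM 3, 4, 5 or 6 or vehicle 1, 2, 3 or 4 (0.0501 to 0.0974). With no filter on low counts both were lost as well (0.101 and 0.0602), which left 7 of the 18 called. Phosphorylated STAT protein, the active form, was not measured.

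Of 13 genes of PIM substrates, all tested, 2 rose, 1 fell and 10 were not called, where 5.37% of all genes were called, at a median of -0.01. Cdkn1a and Cdkn1b encode the cell cycle inhibitors p21 and p27. Cdkn1a rose by 0.47 ± 0.04 SE on the log2 scale (adjusted p = 3.32e-06) and Cdkn1b also by 0.47, ± 0.09 (adjusted p = 0.00799). Cxcr4, the gene of a chemokine receptor that PIM1 phosphorylates, fell by 1.36 ± 0.20 (adjusted p = 0.000849), with HDM and vehicle libraries apart. Eif4b, which encodes a translation initiation factor, was at -0.09 ± 0.03 (adjusted p = 0.164). With the library number as a block 5 were called, 3 higher and 2 lower, where 14.7% of all genes were called, the added ones being Cdc25a at 0.16 (adjusted p = 0.00416) and Eif4b (0.00736). With neighbouring library numbers summed, the list genes named above that edgeR called at 0.05 without a block were Il6, Il10, Csf3, Il10ra, Socs3, Cish, Myc and Cdkn1a. Fitted within libraries 5 and 6 and within libraries 1 to 4, the list genes named above and called over all libraries were called in both sets apart from Socs5 and Pias4, which were not called in libraries 5 and 6. Osm rose by 0.53 in libraries 5 and 6 and by 0.95 in libraries 1 to 4 on the log2 scale, and Sbno2 by 0.12 and by 0.39.

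**Figure D5:**
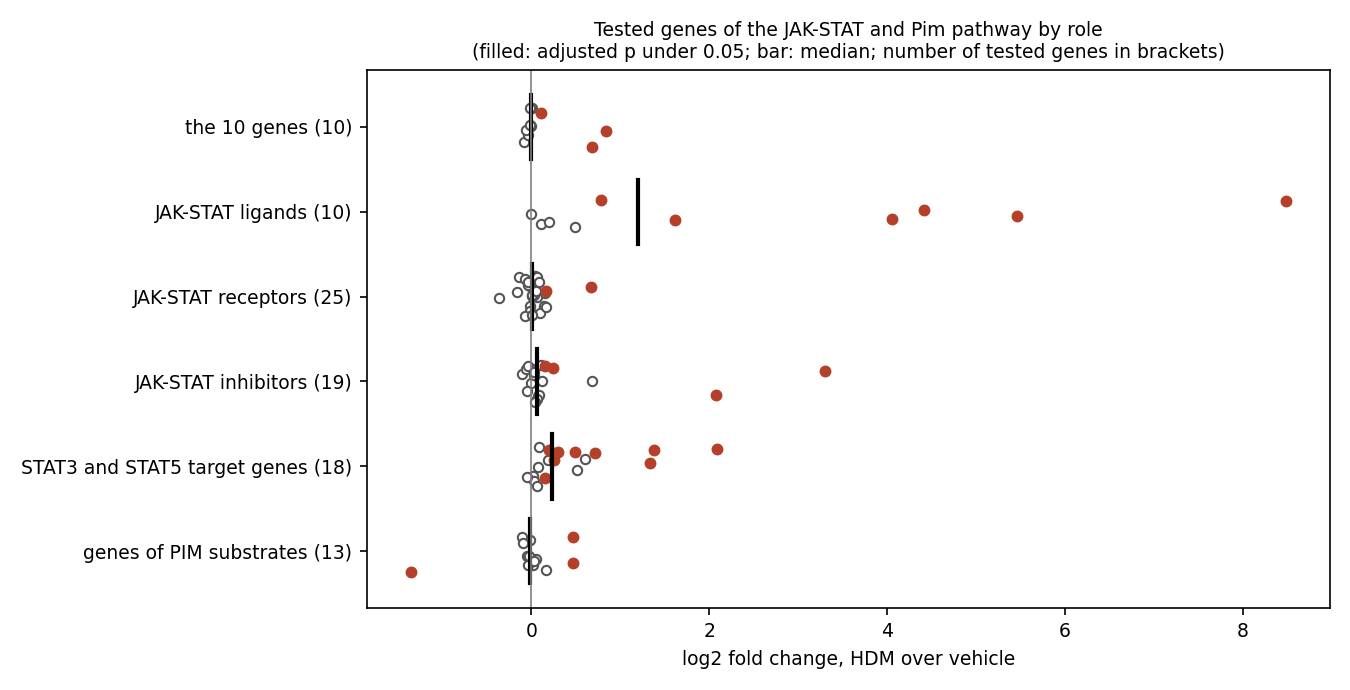
Log2 fold change of HDM over vehicle for the 10 genes and the tested genes of 5 lists, 1 point per gene, filled where the adjusted p is under 0.05, with a bar at the list's median and the number of tested genes in brackets. Ligands reach 8.48, and the members, receptors and substrates centre on 0.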

How the data were processed

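The authors deposited raw counts per gene symbol, not normalized. The libraries come from a stranded mRNA kit, on DNase-treated column RNA, per the labels' protocols. The submitters' processing notes name STAR 2.6.0c, Trim Galore 0.6.10 and featureCounts 2.0.6 among their tools, and the builds GRCm38 and mm39, with no roles. Strand setting, annotation and the rule for reads that match several genes were not stated there.

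The 12 columns were matched to libraries by name. Treatment was the only term in edgeR 4.0.16 (R 4.3.3), with TMM scaling, filterByExpr and Benjamini-Hochberg adjustment over 13530 genes; tests were two-sided, and the script was tested on simulated data. SE is the size of the log2 fold change over the root of F. Alternatives used DESeq2 1.42.0, limma-voom (limma 3.58.1), other scalings and filters, left-out libraries and a block.

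Same-numbered HDM and vehicle libraries deviated from their group means together (correlation over genes 0.367 to 0.672), so numbers were taken as pairs. That pairing comes from the data, and 2 of 6 HDM libraries correlated best with their own number.

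Members and lists were chosen with earlier results of these data known. Named are up to 4 genes per list with the smallest p and 2 nearest profiles per called member; others, named where a count was small, were chosen after their values were seen. Promoters are RefSeq's on GRCm38.p6 (10 of 10 members matched by symbol), and exon lengths GENCODE M21's on GRCm38. Some values of the pathway lists are not reported here.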

Additional observations from a re-analysis of the deposited data

How the results depend on the processing

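Over 23 alternatives Pim1 and Pim3 stayed higher with HDM in all 23 and were called in all but 1, the summed neighbouring numbers; Pim1 ran from 0.77 to 0.92 and Pim3 from 0.62 to 0.77 on the log2 scale. Stat5b stayed higher in all 23 and was called in 9. No other member was called in any. The number of members called was 0 with neighbouring numbers summed and 2 to 3 when 1 library was left out. The number of genes called was 1990 with the replicate block, 1139 in libraries 5 and 6 alone, 119 with neighbouring numbers summed and 1656 with these and a replicate block, which was added after seeing the data, and 561 to 694 without 1 library. With upper-quartile factors 360 genes rose and 408 fell, against 393 and 334 with TMM. The replicate block changed no member's call. When 1 library was left out, the difference of HDM minus vehicle in read share ran from 2.63 to 3.68 percentage points for Pim1, -2.57 to -1.75 for Pim2, -1.4 to -0.628 for Pim3 and -3.0 to -2.17 for Stat5a. Depth limits Pim2 most, with as few as 111 reads in a library.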

Other observations

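Several members differed more between libraries 5 and 6 and libraries 1 to 4 than between treatments. Jak1 averaged 364 CPM in libraries 5 and 6 and 325 CPM in libraries 1 to 4 with HDM, and 354 and 329 CPM with vehicle, with no overlap between the sets in either treatment. Stat3 averaged 99.0 and 88.1 CPM with HDM and 97.96 and 92.7 CPM with vehicle, also without overlap. Jak3 ran lower in libraries 5 and 6, at 18.2 against 20.4 CPM with HDM and 19.9 against 21.3 CPM with vehicle, and with vehicle the sets overlapped. Pim2 was also apart between the sets in both treatments. Pim1 and Pim3 were apart too, but they differed less between the sets than between treatments. On the log2 scale Pim1 differed between the sets by 0.35 with HDM and 0.48 with vehicle, against 0.84 for treatment. Pim3 differed by 0.43 in each group, against 0.69 for treatment. The sets come from these same data and not from the labels, so a lack of overlap between them is partly built in. The share of all tested genes with such a gap was not counted, and these differences were not tested.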
